A study of Mus musculus with 6 samples.

Results

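The 10 genes described here encode transcription factors of the oligodendrocyte lineage, Olig1, Olig2, Sox10, Sox8, Myrf, Nkx6-2, Nkx2-2, Zfp488, Zeb2 and Tcf7l2. They were chosen by symbol from 39017 genes in a table of read counts, and all 10 were among the 16569 genes that had enough counts to be tested. The libraries hold RNA from HA-tagged ribosomes, pulled down from corpus callosum of C57BL/6 mice fed 0.2% cuprizone (3 libraries, replicates 30, 31 and 32) and of mice labelled Vehicle, called controls here (3 libraries, replicates 24, 26 and 27). Cuprizone binds copper, and mice fed it lose oligodendrocytes and myelin. Both groups carry RiboTag, an allele that puts an HA tag on the ribosomal protein RPL22 once Cre has acted, and Olig1-Cre, which is meant to confine the tag to oligodendrocytes and their progenitors. A widely used Olig1-Cre line carries Cre at the Olig1 locus itself. The labels do not say which line was used or whether a copy of Olig1 is disrupted, and this would apply to both groups. The protocol describes females of 8 to 10 weeks, 6 or 9 weeks on cuprizone, and 3 weeks back on normal chow to recover, but does not tie the cuprizone libraries to any of these stages. The labels do not say whether a library is 1 mouse or a pool, so the p-values measure the spread between these libraries.

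Oligodendrocyte fate is set by basic helix-loop-helix factors of the OLIG family together with NKX2-2, and SOX10 then marks every stage of the lineage. As progenitors mature, SOX10 and OLIG2 turn on Myrf, whose product is cleaved from a membrane anchor, enters the nucleus and activates myelin genes. NKX6-2, ZFP488, ZEB2 and TCF7L2 act around this switch, when progenitors leave the cell cycle and begin to wrap axons.

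Some of these factors fell in the cuprizone libraries, and the others did not pass the test. With edgeR's quasi-likelihood test and a Benjamini-Hochberg adjusted p of 0.05 over all genes tested, 5 of the 10 were lower and none was higher, where 5.70% of all genes tested were lower and 1.87% higher. The 5 were Nkx6-2, Sox10, Olig1, Sox8 and Zeb2. Among genes with a mean of at least 20 CPM (read counts relative to library sizes scaled with TMM), a range that holds all 10 factors, 8.58% were lower. The median log2 fold change of the 10 was -0.97, against 0.02 over all genes tested. The cuprizone and control libraries did not overlap for 7 of the 10, all lower in cuprizone, where 17.6% of all genes were lower without overlap. Without an adjustment 7 of the 10 had a p under 0.05, all with negative fold changes, where 12.8% of all genes did. DESeq2 called 7 lower, where it called 8.46% of all genes lower and 5.21% higher, and limma-voom called 5 lower, where it called 5.87% lower and 1.77% higher. None of the 10 was higher with either tool. Other scalings and filters left the same 5 lower, against 5.56%, 5.17%, 5.71%, 3.78% and 6.07% of all genes under RLE scaling, upper-quartile scaling, TMM factors from fewer genes, no filter and a filter on CPM.

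The number of the 10 that passed varied among fits that left out a single library, each of which also had fewer libraries to test. The count of lower factors was 0 without cuprizone replicate 30 (2.87% of all genes lower), 8 without cuprizone replicate 31 (5.44%) and 5 without cuprizone replicate 32 (5.75%). It was 2, 1 and 2 without control replicates 24, 26 and 27 (3.08%, 2.81% and 2.94%). A factor was higher in 1 of these 6 fits, the one without cuprizone replicate 32, where 2.77% of all genes were higher.

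**Figure D1:**
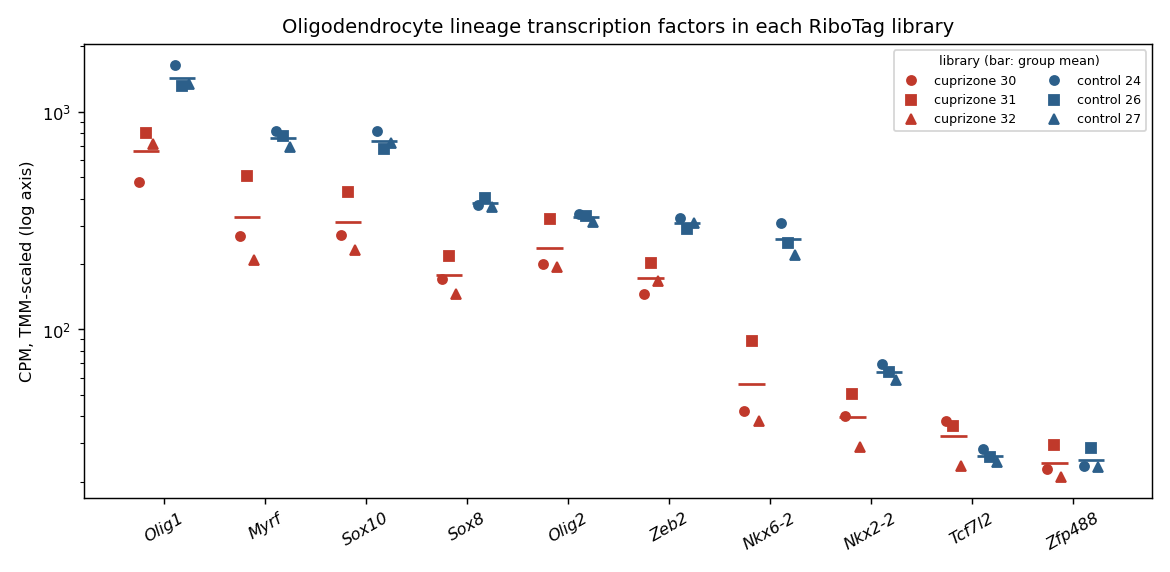
TMM-scaled CPM (log axis) of each factor in the 3 cuprizone libraries (red) and the 3 control libraries (blue), with a bar at each group mean. Every cuprizone library lies under every control library for Olig1, Myrf, Sox10, Sox8, Zeb2, Nkx6-2 and Nkx2-2, and the groups overlap for Olig2, Tcf7l2 and Zfp488.

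Total counts ran from 19455245 to 22381307 in cuprizone libraries and from 18549360 to 18771737 in control libraries. The tagged gene itself, Rpl22, stood at 76.4 ± 9.97 CPM in cuprizone and 70.4 ± 7.14 CPM in control libraries (SD, n = 3 each). The labelled cell type was present in both groups, with 20 myelin and mature oligodendrocyte genes summing to 9621 to 17990 CPM in cuprizone and 70040 to 91280 CPM in control libraries. Markers of other cells were present too and none was at 0 in any library. Microglia markers (15 genes) summed to 2492 to 5936 CPM in cuprizone and 1608 to 3247 CPM in control libraries, and astrocyte markers (8 genes) to 15540 to 29960 CPM in cuprizone and 21910 to 24690 CPM in control libraries. Neuron markers (8 genes) summed to 1676 to 3249 CPM in cuprizone and 1333 to 2276 CPM in control libraries, and endothelial markers (5 genes) to 19.5 to 59.2 CPM in cuprizone and 11.9 to 18.9 CPM in control libraries. The median log2 fold change was 0.895 over the microglia list and 0.074 over the astrocyte list, with positive values for 13 and 4 genes. It was 0.35 over the neuron list and 1.19 over the endothelial list, with positive values for all 8 and all 5 genes. With edgeR 0 genes of the neuron and endothelial lists passed, where 5.70% of all genes tested were lower and 1.87% higher. Before adjustment 0 and 2 had an edgeR p under 0.05, where 3864 of the 16569 genes tested did in either direction. DESeq2 called 0 and 1 higher, where it called 5.21% of all genes higher. The part of these cells in the results on the 10 factors was not tested. Counts of cuprizone replicate 32 differed most from the other two of its group (chi-square over degrees of freedom 85.1 and 101, where replicates 30 and 31 gave 26.6), and that library held the highest microglia and the lowest astrocyte sum. In ribosome-bound RNA pulled down from tissue, fewer cells of a type and less of this RNA per cell cannot be told apart.

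Levels were ordered per length of exon, as CPM per kilobase. In control libraries Olig1 stood highest at 665 ± 85.1, followed by Sox10 at 241 ± 23.2 (SD, n = 3 each). Nkx6-2 (136 ± 23.4), Olig2 (129.7 ± 5.65) and Sox8 (122 ± 6.26) came next, and their ranges over the 3 libraries overlapped. Below them stood Myrf at 88.8 ± 7.60, Nkx2-2 at 22.2 ± 1.93, Zeb2 at 15.5 ± 0.900, Zfp488 at 5.84 ± 0.657 and Tcf7l2 at 2.996 ± 0.201, with no overlap between neighbours. Exons of all annotated transcripts were joined, 19942 bases for Zeb2 and 1907 for Nkx6-2, so a gene with rarely used exons has its level understated. In cuprizone libraries Olig1 was again first (306 ± 77.3), and Sox10 (102 ± 34.0) and Olig2 (94.0 ± 28.2) overlapped. Nkx6-2 was sixth at 29.5 ± 14.6 CPM per kilobase, below Sox8 at 56.9 ± 11.7 and Myrf at 38.3 ± 18.3, and its range overlapped that of Myrf and not that of Sox8.

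Promoters were set beside these results because several of the factors moved together and OLIG and ZEB proteins bind E boxes. Promoters came from RefSeq (GRCm38.p6, the build also called mm10), which listed 7 of the 10 genes. Motifs were searched in the 250 bases before each start site, and these bases are printed. They show Nkx6-2 and Sox8, which fell, and Nkx2-2 and Olig2, which did not pass, each 5′ to 3′ on its own strand with every E box (CANNTG, a palindrome) in capitals.
Nkx6-2 (chr7:139582798-139583047, minus strand): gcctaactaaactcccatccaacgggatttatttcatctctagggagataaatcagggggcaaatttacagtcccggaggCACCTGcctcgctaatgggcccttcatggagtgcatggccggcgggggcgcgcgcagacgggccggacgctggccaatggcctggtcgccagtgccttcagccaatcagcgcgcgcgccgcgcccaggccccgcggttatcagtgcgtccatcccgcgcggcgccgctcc
Sox8 (chr17:25570687-25570936, minus strand): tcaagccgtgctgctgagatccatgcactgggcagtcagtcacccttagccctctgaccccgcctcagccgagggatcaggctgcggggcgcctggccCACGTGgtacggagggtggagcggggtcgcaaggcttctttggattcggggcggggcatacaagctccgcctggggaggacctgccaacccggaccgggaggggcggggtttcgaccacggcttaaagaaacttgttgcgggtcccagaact
Nkx2-2 (chr2:147186403-147186652, minus strand): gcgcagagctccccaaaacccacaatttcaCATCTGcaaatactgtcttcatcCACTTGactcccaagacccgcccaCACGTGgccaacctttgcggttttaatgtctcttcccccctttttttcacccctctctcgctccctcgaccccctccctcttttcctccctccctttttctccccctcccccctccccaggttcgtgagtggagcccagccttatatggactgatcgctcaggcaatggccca
Olig2 (chr16:91225300-91225549, plus strand): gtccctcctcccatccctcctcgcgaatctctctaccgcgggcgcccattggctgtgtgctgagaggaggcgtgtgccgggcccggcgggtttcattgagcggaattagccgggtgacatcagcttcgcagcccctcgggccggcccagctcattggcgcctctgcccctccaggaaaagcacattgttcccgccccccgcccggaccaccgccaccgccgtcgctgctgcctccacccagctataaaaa
Nkx6-2 and Sox8 each had 1 E box in this window, Nkx2-2 had 3 and Olig2 had 0, and 66.2% of the 32851 windows of the same length in the table held at least 1. The E box of Nkx6-2 reads CACCTG, the form that ZEB proteins bind, which 17.2% of windows held on either strand. The SOX core ACAAT, searched on both strands, occurred once in the windows of Olig2 and Nkx2-2 and in 27.7% of all windows. It was not among the letters of the Nkx6-2, Sox8, Zfp488 and Zeb2 windows. The Tcf7l2 window that starts at 55741560 held it 2 times, and the one that starts at 55895071 did not hold it. The windows of Zfp488, of 4 start sites of Zeb2 and of 2 start sites of Tcf7l2 held no E box.

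The bHLH genes Olig1 and Olig2 both lie on chromosome 16. Olig1 fell and Olig2 did not pass. Olig1 (91269772 to 91271933 in GRCm38) promotes maturation and remyelination in mice. It had 474, 797 and 712 CPM in cuprizone replicates 30, 31 and 32, against 1650, 1319 and 1346 CPM in control replicates 24, 26 and 27. All 3 cuprizone libraries were below all 3 control libraries, and the fall was 2.18-fold, a log2 fold change of -1.12 ± 0.24 (SE, edgeR adjusted p = 0.0334). Its adjusted p was up to 0.113 without cuprizone replicate 30 or without control replicate 24, 26 or 27. Olig2 (91225457 to 91228677) is needed for the lineage from specification onwards. It had 199.9, 320.4 and 194 CPM in cuprizone replicates 30, 31 and 32, against 341, 331 and 312 CPM in the controls. Cuprizone replicate 31 lay within the control range and the other two below it, and the log2 fold change of -0.46 ± 0.22 did not pass (adjusted p = 0.25). Without cuprizone replicate 31 it passed at -0.74 (adjusted p = 0.0288).

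Of the SOXE genes, Sox10 and Sox8 fell by similar amounts. Sox9, also a SOXE gene, did not pass (log2 fold change 0.185, edgeR adjusted p = 0.663). Sox10 (chromosome 15, 79154908 to 79165240), which is required for myelin gene expression, had 272, 428 and 231 CPM in cuprizone replicates 30, 31 and 32, against 814, 676 and 717 CPM in the controls. The groups did not overlap, and the fall was 2.37-fold (log2 fold change -1.25 ± 0.25, edgeR adjusted p = 0.0289). The adjusted p was up to 0.116 without cuprizone replicate 30 or any single control library. Sox8 (chromosome 17, 25565892 to 25570686), a relative that shares part of the work of Sox10, had 170.3, 217 and 145 CPM in cuprizone libraries and 373, 402 and 365 CPM in control libraries. The groups lay well apart, and the fall was 2.14-fold (-1.10 ± 0.18, adjusted p = 0.012). Without cuprizone replicate 30 or control replicate 26 its adjusted p was up to 0.0622. An antisense transcript, 2810468N07Rik, shares 329 exonic bases (10.6%) with Sox8 and had 37.5 ± 8.50 CPM in cuprizone and 179 ± 27.6 CPM in control libraries (-2.26 ± 0.20, adjusted p = 0.00175). Whether strand was used in counting is not stated, so reads of the 2 genes over those bases cannot be told apart.

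Myrf (chromosome 19, 10208272 to 10240748), the factor that switches on myelin genes, was as far below control as Sox10 but varied more among cuprizone libraries. It had 268, 505 and 209.5 CPM in cuprizone replicates 30, 31 and 32, against 815, 778 and 688 CPM in the controls. No cuprizone library reached the control range. The log2 fold change was -1.21 ± 0.33, and the edgeR adjusted p of 0.0734 missed the threshold, which DESeq2 passed (adjusted p = 0.00264). Leaving out cuprizone replicate 31, the highest of its group, brought the log2 fold change to -1.67 and past the threshold (adjusted p = 0.00518).

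Of the homeodomain genes, Nkx6-2 fell and Nkx2-2 did not pass. Nkx6-2 (chromosome 7, 139579376 to 139582797), a factor of mature oligodendrocytes that acts on the paranodal parts of myelin in mice, had 42.2, 88.4 and 38.1 CPM in cuprizone libraries and 308, 249.8 and 220.4 CPM in control libraries. Its highest cuprizone value was under its lowest control value by a wide margin. The fall of 4.61-fold was the largest of the 10 (log2 fold change -2.21 ± 0.34, edgeR adjusted p = 0.0109), and only without cuprizone replicate 30 did it miss the threshold (adjusted p = 0.0507). Inpp5a, an inositol phosphatase gene on the opposite strand, shares 246 exonic bases (12.9%) with Nkx6-2 and was itself lower, at 56.9 ± 6.28 CPM in cuprizone and 117 ± 1.51 CPM in control libraries (-1.03 ± 0.12, adjusted p = 0.00333). Nkx2-2 (chromosome 2, 147177546 to 147194243), which is made in progenitors and switched down as myelination proceeds, had 39.99, 50.4 and 28.7 CPM in cuprizone libraries and 69.7, 63.5 and 58.6 CPM in control libraries. The groups did not overlap, yet the log2 fold change of -0.69 ± 0.20 did not pass (adjusted p = 0.0983). It passed with DESeq2 (adjusted p = 0.0327) and without cuprizone replicate 31, with a log2 fold change of -0.90 (adjusted p = 0.0391).

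Of the zinc finger genes, Zeb2 fell and Zfp488 did not pass. Zeb2 (chromosome 2, 44983632 to 45117395), which in mice restrains BMP signalling in maturing oligodendrocytes, had 146, 202 and 167 CPM in cuprizone libraries and 327, 291 and 308 CPM in control libraries. The groups lay apart, and the fall was 1.8-fold (log2 fold change -0.85 ± 0.16, edgeR adjusted p = 0.0207). Without cuprizone replicate 30 or any single control library its adjusted p reached 0.0859 at most. Microglia also make Zeb2. Their 15 markers summed to 2492, 3204 and 5936 CPM in cuprizone replicates 30, 31 and 32 and to 3247, 1774 and 1608 CPM in control replicates 24, 26 and 27, and their part in the level of Zeb2 was not tested. With edgeR and limma-voom 0 of the 15 passed, where 1.87% and 1.77% of all genes tested were higher. Before adjustment 3 had an edgeR p under 0.05, where 3864 of the 16569 genes tested did in either direction. DESeq2 called 2 higher, where it called 5.21% of all genes higher.

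Zfp488 (chromosome 14, 33967070 to 33978764), a zinc finger protein that works with OLIG2 to promote differentiation, had 22.7, 29.6 and 20.9 CPM in cuprizone libraries and 23.6, 28.4 and 23.4 CPM in control libraries. The groups covered the same range, and the log2 fold change was -0.04 ± 0.16 (edgeR adjusted p = 0.91), with a sign that turned under 4 of 13 alternatives. Tcf7l2 (chromosome 19, 55741820 to 55933654), an HMG box partner of beta-catenin that appears briefly as oligodendrocytes form, had 38.1, 35.8 and 23.5 CPM in cuprizone libraries and 28.2, 26.01 and 24.7 CPM in control libraries. Cuprizone replicates 30 and 31 stood above every control and replicate 32 below them, and the log2 fold change of 0.31 ± 0.19 did not pass (adjusted p = 0.38). Without cuprizone replicate 32 it passed, at 0.49 (adjusted p = 0.0415). Astrocytes make Tcf7l2 as well. The astrocyte sum was 25250, 29960 and 15540 CPM in cuprizone replicates 30, 31 and 32 and 24690, 22100 and 21910 CPM in the controls, and its part in the level of Tcf7l2 was not tested.

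**Figure D2:**
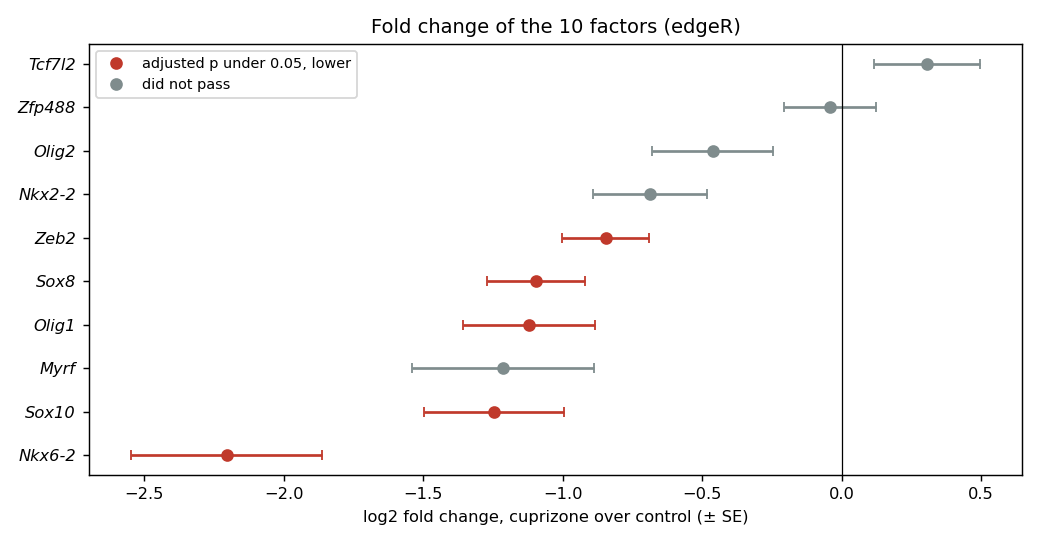
log2 fold change of cuprizone over control for each factor with its standard error (edgeR, 3 libraries each), in red where the adjusted p was under 0.05. The values run from -2.21 for Nkx6-2 to 0.31 for Tcf7l2.

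Most factors shared their highest and lowest cuprizone library. Replicate 31 had the highest level of its group for 9 of the 10, all but Tcf7l2, and replicate 32 the lowest for 8, all but Olig1 and Zeb2. The median level of the 10, as log2 CPM relative to each gene's control mean, was -1.12, -0.60 and -1.08 in cuprizone replicates 30, 31 and 32. The myelin list was also highest in replicate 31, with mean values of -3.06, -2.36 and -3.33 on that scale, while progenitor markers stood at 0.20, 0.12 and -0.70. The myelin list was therefore lower than the factors in each of the 3 libraries. No control library was more than 0.26 from the control mean for any factor.

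**Figure D3:**
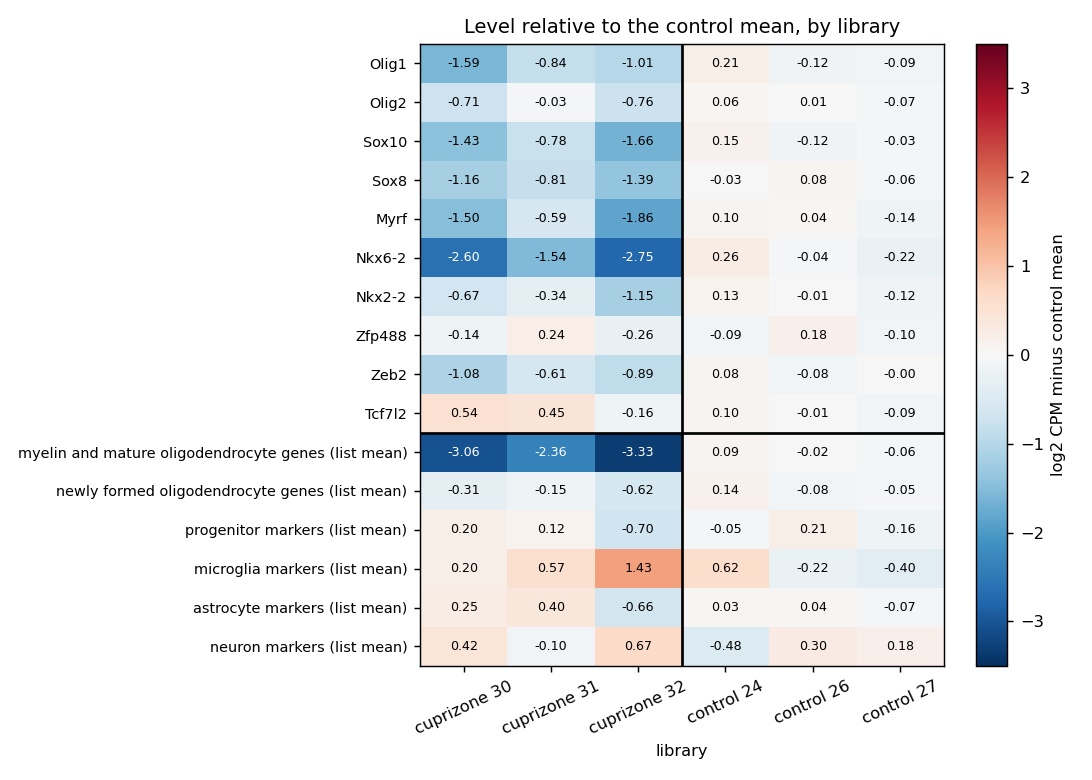
log2 CPM relative to the control mean, for each factor (upper rows) and as the mean of marker lists (lower rows), in the cuprizone libraries (left) and the control libraries (right). Nkx6-2 reaches -2.75 in cuprizone replicate 32, where the myelin list stands at -3.33 and the microglia list at 1.43.

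Balances between factors were compared as log2 ratios of counts within each library, which do not depend on library size. Sox10 was the denominator because it marks all stages of the lineage. With 3 libraries against 3 an exact permutation test (2-sided) cannot give a p below 0.1, and over these 9 ratios the smallest adjusted p was 0.15, so no ratio could pass. Nkx6-2 to Sox10 averaged -2.52 ± 0.22 in cuprizone and -1.51 ± 0.17 in control libraries (SD, n = 3 each), a difference of -1.01 without overlap (exact permutation p = 0.1). Olig2 to Sox10 averaged -0.37 ± 0.10 in cuprizone and -1.16 ± 0.12 in control libraries, a difference of 0.79 without overlap (exact permutation p = 0.1). The ratios of Tcf7l2, Zfp488, Nkx2-2 and Zeb2 were also higher in every cuprizone library than in any control, by 1.57, 1.24, 0.57 and 0.43 (each exact permutation p = 0.1). Sox10 itself fell (log2 fold change -1.245), so a gene with little change, such as Zfp488 (-0.042), has a higher ratio too. The share of all genes with a higher ratio to Sox10 was not computed. With Olig2 as the denominator the differences of Nkx2-2 and Zeb2 turned to -0.22 and -0.36 (exact permutation p = 0.3 and 0.1), with overlap for Nkx2-2 and every cuprizone library below every control for Zeb2. In contrast Myrf to Sox10 was at 0.03 ± 0.20 in cuprizone and 0.05 ± 0.14 in control libraries, and Sox8 and Olig1 overlapped between the groups too. Olig1 to Sox10 was 0.80, 0.90 and 1.62 in cuprizone replicates 30, 31 and 32 and 0.91 to 1.02 in controls, so that replicate 32 stood above all other libraries.

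**Figure D4:**
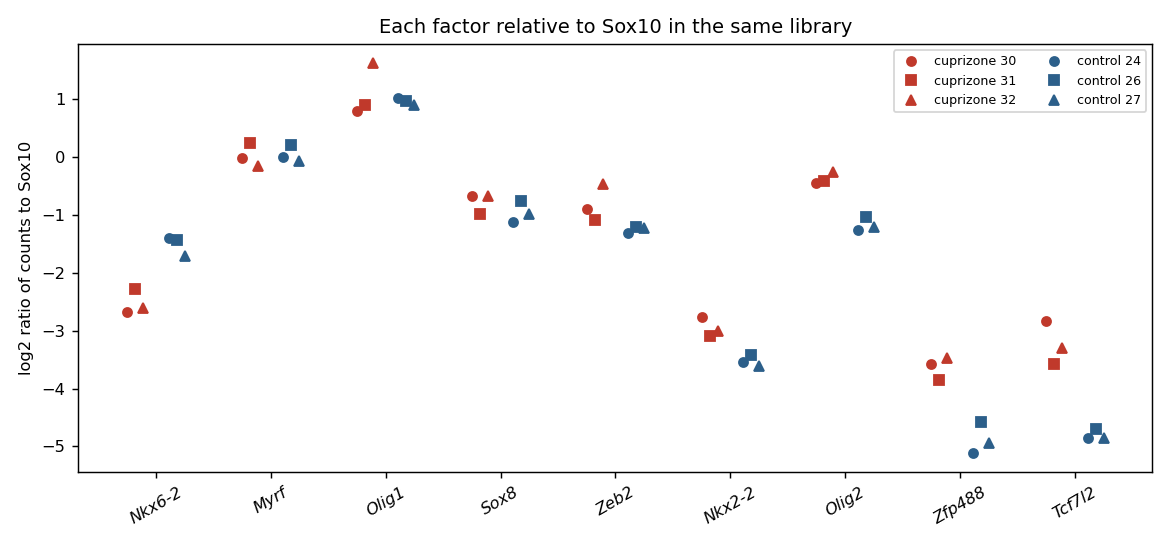
log2 ratio of each factor's counts to those of Sox10 in the same library, for the cuprizone libraries (red, left of each pair) and the control libraries (blue), ordered by the difference between groups. The groups lie apart for Nkx6-2 (difference -1.01) at one end and for Tcf7l2 (1.57) at the other, and overlap for Myrf, Olig1 and Sox8.

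Profiles over the 6 libraries were compared as the root mean square difference in log2 CPM relative to each gene's control mean. Among the factors Sox10 and Myrf were closest, at 0.14, and Nkx6-2 and Tcf7l2 farthest apart, at 1.85. Among 11307 genes with a mean of at least 5 CPM, the nearest to Sox10 were Csrp1 (0.071), Rgs3 (0.087) and Bpgm (0.094). Those nearest to Myrf were Sh3tc2, Kif13a, a kinesin, and Sec11c (0.105 to 0.115), and those nearest to Olig1 were Fth1, the ferritin heavy chain, Mapt, which encodes tau, and Wdr54 (0.105 to 0.120). Efnb3, an ephrin, Tmem63a, a mechanosensitive channel, and Nkain1 were nearest to Nkx6-2 (0.147 to 0.160). Sept7, Tradd and Jup were nearest to Zeb2 (0.048 to 0.055), and Them4, Zic5 and Nudt21 to Tcf7l2 (0.033 to 0.055).

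Genes of myelin and mature oligodendrocytes fell as well, and whether this depended on the factors was not tested. All 20 myelin and mature oligodendrocyte genes were lower, with a median log2 fold change of -2.87, where 5.70% of all genes tested were lower. Without cuprizone replicate 30 the count was 16 (2.87% of all genes lower). Without control replicates 24, 26 and 27 in turn it was 18, 17 and 18 (3.08%, 2.81% and 2.94%). Fa2h, which hydroxylates myelin lipids, and Cldn11, a tight junction protein of myelin, had log2 fold changes of -3.29 and -3.02, and Mog, a protein of the outer myelin surface, had -3.68. The steepest fall among the factors, that of Nkx6-2, was smaller than the median of these 20 genes.

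Some partners of the factors fell too. Of 15 partner and differentiation regulators 3 were lower and none higher with edgeR (5.70% of all genes tested were lower), with a median log2 fold change of -0.22, and DESeq2 called 5 lower, where it called 8.46% of all genes lower. Tmem98, a membrane protein that binds MYRF and holds back its cleavage, had 26.9 ± 8.56 CPM in cuprizone and 90.2 ± 7.94 CPM in control libraries (-1.75 ± 0.23, edgeR adjusted p = 0.00607), a call that held without any single library. St18, a zinc finger gene of the Myt family, and Zfp536, a zinc finger repressor, fell by 1.715 and 1.805 on the log2 scale. Their adjusted p was up to 0.0704 and 0.0775 without cuprizone replicate 30 or any single control library, which left 1 of the 15 lower. Tcf4, the E protein that pairs with OLIG2, was at 493 ± 61.0 CPM in cuprizone and 588 ± 46.9 CPM in control libraries and did not pass (adjusted p = 0.39).

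Of 10 chromatin regulators 1 was lower, a share near that of all genes tested (5.70%, or 8.58% of those with a mean of at least 20 CPM). It was Chd7, a remodeler that works with SOX10, with a log2 fold change of -0.75 ± 0.15 (edgeR adjusted p = 0.0255). Its adjusted p was up to 0.109 without cuprizone replicate 30 or control replicate 24 or 27. The list's median was 0.02, and Prmt5 and Chd8 had log2 fold changes of 0.15 and -0.16.

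Factors of the progenitor stage did not pass. Of 12 tested progenitor-stage and inhibitory factors 0 passed with edgeR and with limma-voom. Before adjustment 1 had an edgeR p under 0.05, where 3864 of the 16569 genes tested did in either direction. DESeq2 called 1 lower, where it called 8.46% of all genes lower. That gene was Hes5, a Notch effector, at 14.8 ± 6.02 CPM in cuprizone and 27.2 ± 2.61 CPM in control libraries (-0.87 ± 0.27, edgeR adjusted p = 0.11, or 0.00756 without cuprizone replicate 31). Id4, which inhibits differentiation, was higher in every cuprizone library than in any control (0.31 ± 0.14, adjusted p = 0.24, or 0.0496 without cuprizone replicate 32). The median of the list was 0.01. Of 9 progenitor markers 0 passed by any of edgeR, DESeq2 and limma-voom. Before adjustment 3864 of the 16569 genes tested had an edgeR p under 0.05, and so did 1 of these 9 markers. Their log2 fold changes were -0.32 for Pdgfra, the growth factor receptor of progenitors, -0.46 for C1ql1 and 0.24 for Ccnd1. Of 7 newly formed oligodendrocyte genes 1 was lower with edgeR, where 5.70% of all genes tested were lower. It was Enpp6 (-1.18 ± 0.21, edgeR adjusted p = 0.0185, or up to 0.0758 without a control library). Tmem163 and Bcas1 had log2 fold changes of -0.63 and -0.74 and did not pass with edgeR (adjusted p = 0.0592 and 0.25). DESeq2 called 2 of the 7 lower, where it called 8.46% of all genes lower, and Tmem163 passed with it (adjusted p = 0.0118).

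**Figure D5:**
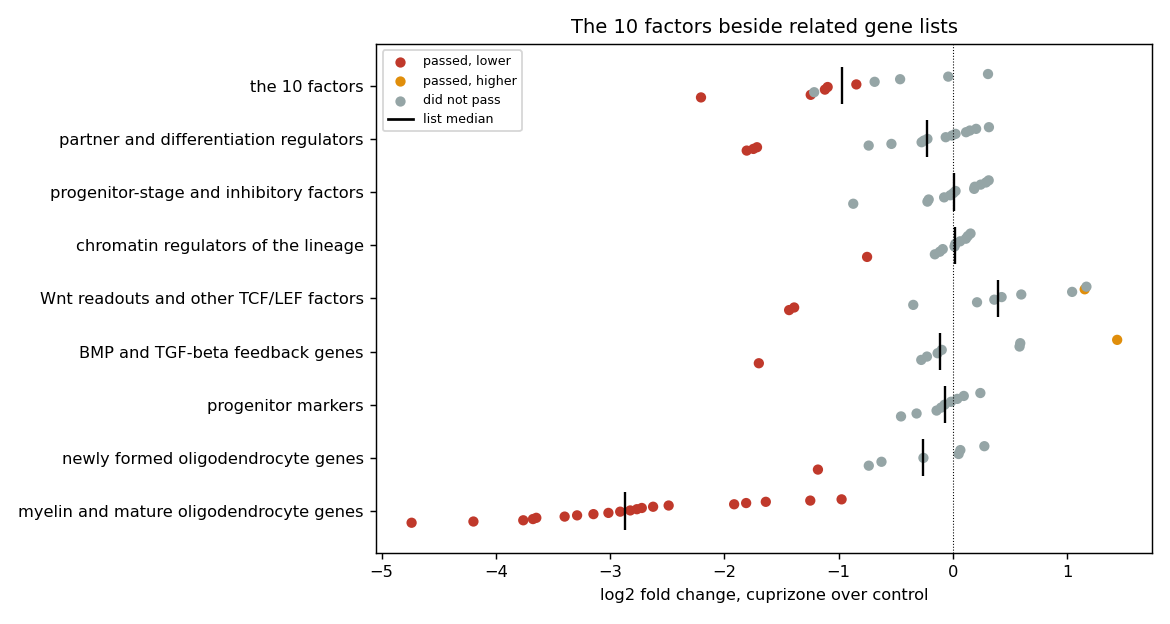
log2 fold change of cuprizone over control for every tested gene of the 10 factors and of related lists (edgeR), coloured by call, with a black bar at each list's median. The medians are -0.97 for the 10 factors, -0.22 for partner and differentiation regulators, 0.01 for progenitor-stage factors and -2.87 for myelin genes.

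Readouts of the signalling pathways that TCF7L2 and ZEB2 act in went both ways. Of 10 Wnt readouts and other TCF/LEF factors 2 were lower and 1 higher, where 5.70% of all genes tested were lower and 1.87% higher. The list's median log2 fold change was 0.39. Those of the list that were lower were Nkd1 and Rnf43, which dampen Wnt signalling (-1.39 ± 0.26 and -1.43 ± 0.27). The higher one was Tcf7, a relative of Tcf7l2, with 6.01 ± 0.764 CPM in cuprizone and 2.70 ± 0.362 CPM in control libraries (1.15 ± 0.20, edgeR adjusted p = 0.0158). Without cuprizone replicate 30 or control replicate 24 or 27 none of the 10 passed. Without cuprizone replicate 32 the count of higher genes was 3, where 2.77% of all genes were higher. The adjusted p was up to 0.0896 for Nkd1, 0.0949 for Rnf43 and 0.0765 for Tcf7 in fits without a single library. Axin2, a direct readout of beta-catenin, had a log2 fold change of 0.36 ± 0.18 (adjusted p = 0.28).

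Of 8 genes of BMP and TGF-beta feedback 1 was lower and 1 higher with edgeR, with a median log2 fold change of -0.12. Over all genes tested edgeR called 5.70% lower and 1.87% higher. DESeq2 called 1 of the 8 lower and 3 higher, where it called 8.46% of all genes lower and 5.21% higher. Smad7, an inhibitory SMAD that ZEB2 is known to raise in mouse oligodendrocytes, had 32.4 ± 3.94 CPM in cuprizone and 105 ± 17.7 CPM in control libraries (-1.70 ± 0.16, edgeR adjusted p = 0.00204), and passed without any single library. Bambi, a decoy receptor, had 10.6 ± 1.34 CPM in cuprizone and 3.93 ± 0.988 CPM in control libraries (1.44 ± 0.22, adjusted p = 0.00934, or up to 0.0554 without control replicate 26 or 27). Skil, a SMAD corepressor, had a log2 fold change of 0.59 (edgeR adjusted p = 0.0651, DESeq2 adjusted p = 0.0151).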

How the data were processed

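The authors deposited raw read counts per Ensembl mouse gene for 6 libraries, made with an anti-HA pull-down, a Direct-zol kit and a Kapa RNA kit, per the labels' protocols. Per the submitters' processing notes, bcl2fastq 2.17 and build mm10 were used. The aligner, counter, annotation release and strand use were not given in the sources used here. Symbols, coordinates (1-based) and exon lengths came from GENCODE M21 (GRCm38), which matched 37693 of 39017 identifiers. Genes were kept with filterByExpr (minimum count 10, minimum total 15), scaled with TMM and tested with edgeR 4.0.16 (glmQLFit, robust, glmQLFTest, 2-sided; common biological coefficient of variation 0.215) in R 4.3.3, with Benjamini-Hochberg adjustment over all 16569 genes. Each standard error was derived from the log2 fold change and its F statistic. Ratios added 0.5 counts. Alternatives used DESeq2 1.42.0, limma-voom 3.58.1, other scalings and filters, and left out single libraries. Low genes carry counting error that adds to the spread; the lowest count of any of the 10 factors was 400.

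The members and gene lists were chosen with earlier results of these data known. The text names all 10 factors, 3 genes per list, ranked by adjusted p, unless a list is given by its count or sum, a few fixed genes and the nearest profiles. Some genes that this rule names are not reported here. The genes 2810468N07Rik and Inpp5a were added because they overlap members. Lhfpl3 had no match. The share of 50-base stretches of a member's transcripts that also occur in another gene was 0% for Olig2, Sox10, Myrf and Tcf7l2, 2.26% for Zeb2, 5.11% for Olig1, 8.04% for Nkx2-2, 8.99% for Sox8, 10.7% for Nkx6-2 and 15.6% for Zfp488. Those of Olig1, Sox8, Nkx6-2 and Nkx2-2 lie in genes on the opposite strand.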

Additional observations from a re-analysis of the deposited data

How the results depend on the processing

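No paired analysis was possible because the groups share no replicate number. The same 5 factors passed with limma-voom, with both other filters, and with scaling by RLE, by upper quartile or by TMM on genes outside the myelin list and the 20 highest. DESeq2 called 7 lower and, over all genes, 862 higher and 1400 lower. Leaving out 1 library in turn gave 0 to 8 factors lower and 0 to 1 higher, with 65 to 464 genes higher and 474 to 963 lower over all genes. No factor passed without cuprizone replicate 30, where 2.87% of all genes were lower at the adjusted threshold. In that fit 7 of 10 had an unadjusted edgeR p under 0.05. The unadjusted share over all genes was not computed for that fit, and was 12.8% lower with all 6 libraries. Without cuprizone replicate 31, 8 factors passed. Zfp488 turned positive with upper-quartile scaling (0.012) and lay between -0.207 and 0.06 with a library left out; Cspg4, at -0.02, was at 0.039 with upper-quartile scaling and 0.005 with limma-voom. With a library left out Cspg4 ran from -0.172 to 0.223 and Rbfox3 from -0.10 to 0.816. With Olig2 in place of Sox10 as the denominator, the differences were -0.65 for Olig1, -0.61 for Sox8, -0.81 for Myrf and -1.80 for Nkx6-2. They were -0.22 for Nkx2-2, 0.45 for Zfp488, -0.36 for Zeb2 and 0.78 for Tcf7l2. Olig1, Sox8, Nkx2-2 and Zeb2 thus changed sign, from 0.143, 0.175, 0.57 and 0.43 with Sox10. Because log ratios subtract, each value with Olig2 is the one with Sox10 less 0.79, the difference of Olig2 to Sox10. A prior of 5 counts moved no ratio beyond 1 SD.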
